A study of Bos taurus with 48 samples.

Results

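SLC25A1, ACLY and ACSS2 are the genes that supply acetyl-CoA to the cytosol by the citrate route (SLC25A1 and ACLY) and by the acetate route (ACSS2), and they were followed as 3 of the 24616 genes counted in subcutaneous adipose tissue of Norwegian Red heifers, a dairy breed. They were chosen by their place in metabolism, with earlier results of these data already known. They were found by their Ensembl gene identifiers, ENSBTAG00000008528 for SLC25A1, ENSBTAG00000016740 for ACLY and ENSBTAG00000013303 for ACSS2. RNA of 24 heifers was sequenced at 12 months of age and again from the same animals in month 7 of gestation, at 20 to 24 months of age, which gave 48 samples. From 3 months of age until pregnancy was established the heifers received 1 of 4 diets, low-protein high-energy (LPHE), low-protein low-energy (LPLE), high-protein high-energy (HPHE) or high-protein low-energy (HPLE), with 6 heifers per diet. Intake of silage was unlimited on the high-energy (HE) diets, and rationed and diluted with straw on the low-energy (LE) diets. By the study's feed values the HE diets also gave more crude protein per day than the LE diets. The low-protein concentrate held more starch than the high-protein one. The energy and protein contrasts therefore compare whole diets and not single nutrients. Each diet held 3 heifers of a genetic group bred for high milk yield (HMY) and 3 of a group bred for a low occurrence of clinical mastitis (LCM). All heifers moved to a joint low-energy diet on day 28 to 42 of gestation, so the names of the diets in gestation stand for earlier feeding. Age, gestation and the change of diet all differ between both samplings and cannot be told apart. Breeding was set by body weight, which the slower-growing LE heifers reached later, so that LE heifers were older than HE heifers at the second sampling, by an amount per heifer that is not given in the sources used here. In every energy contrast of gestation, earlier feeding, its duration and age therefore cannot be told apart. The same holds where changes between both samplings are compared between HE and LE diets.

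Fatty acids and sterols are built in the cytosol from acetyl-CoA, which does not cross the inner mitochondrial membrane as such. SLC25A1, the mitochondrial citrate carrier, exports citrate, and ACLY (ATP citrate lyase) splits it in the cytosol into acetyl-CoA and oxaloacetate. ACSS2 (cytosolic acyl-CoA synthetase short chain family member 2) activates acetate directly, a route that matters in cattle, whose rumen microbes release large amounts of acetate.

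Between 14815595 and 61027456 reads per sample were counted on genes, and each of the 3 genes had at least 1797 reads in every sample, so that the spread between heifers and not counting error limited the precision. Levels are given as CPM, the reads of a gene relative to all reads on genes of the library after TMM scaling. CPM is not corrected for gene length, so levels were compared between samples of a gene and never between genes. The adipocyte markers CIDEC (lipid droplet protein) and LEP (leptin), 2 of 6 listed markers with an identifier, had a summed level of 886.8 to 3378 CPM and neither was at 0 in any of the 48 samples. In bulk tissue, fewer cells of a type and less RNA per cell cannot be told apart.

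At 12 months SLC25A1, the citrate carrier, was higher in LPHE than in LPLE heifers. Its lowest, median and highest levels were 581.2, 785.0 and 1076 CPM in LPHE heifers against 248.7, 390.5 and 529.4 CPM in LPLE heifers. The ranges did not overlap, and the fitted log2 fold change was 1.05 (SE 0.27, FDR 0.00889, likelihood ratio test of edgeR). How many of all genes had no overlap between diets was not counted at either sampling. In HPHE heifers SLC25A1 ran from 430.8 over a median of 753.9 to 932.8 CPM, and in HPLE heifers from 217.1 over 440.7 to 1088 CPM. Here the ranges overlapped, since HPLE heifer 7 had the highest SLC25A1 level of all 24 heifers at 12 months. The log2 fold change was 0.45 (95% interval from -0.08 to 0.98, FDR 0.754).

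ACLY, the citrate-splitting enzyme, varied most between heifers at 12 months. It ran from 243.9 over a median of 424.3 to 1088 CPM in LPHE heifers and from 103.1 over 149.7 to 649.5 CPM in LPLE heifers. LPLE heifer 8 stood apart from the other 5 LPLE heifers, whose highest level was 242.2 CPM. Between LPHE and LPLE heifers ACLY differed by 1.14 on the log2 scale (SE 0.42, FDR 0.0949). That call was the weakest of the 3 genes, as it was lost when any of 8 of the 12 heifers was left out (LPHE 5, 20 and 24, LPLE 4, 10, 14, 18 and 22), with an FDR up to 0.322 and an estimate of 0.73 without LPHE heifer 20. Without LPLE heifer 8 the estimate was 1.70. In HPHE heifers ACLY ran from 304.9 over 445.1 to 1090 CPM and in HPLE heifers from 118.1 over 194.0 to 527.8 CPM. Here the estimate was 1.28 on the log2 scale (95% interval from 0.45 to 2.11) with an FDR of 0.340, so the gene was not called although the estimate was no smaller than under low protein.

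ACSS2, the acetate-activating enzyme, gave the smallest FDR of the 3 genes at 12 months. It ran from 2526 over a median of 3846 to 4547 CPM in LPHE heifers and from 1118 over 1508 to 2251 CPM in LPLE heifers, with no overlap. The log2 fold change was 1.22 (SE 0.24, FDR 2.90e-04). In HPHE heifers ACSS2 ran from 1996 over 3647 to 4595 CPM and in HPLE heifers from 1381 over 2160 to 3773 CPM. HPLE heifer 7 again had the highest level of its diet, and the log2 fold change was 0.68 (95% interval from 0.21 to 1.14, FDR 0.398).

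All 3 genes were thus called higher in LPHE than in LPLE heifers at 12 months, where 4.45% of the 13339 genes tested were. The study selected them among its differentially expressed genes of that contrast, so their direction there is not independent evidence. None was called in HPHE against HPLE, a contrast in which only 0.06% of all genes were called higher. Library size in place of TMM turned the split of all calls in LPHE against LPLE from 593 higher and 351 lower to 422 higher and 491 lower, and ACLY was then not called (1.05, FDR 0.141). In HPHE against HPLE 2 of the 3 had an unadjusted p under 0.05, and neither the quasi-likelihood F test nor DESeq2 called any of them. Without HPLE heifer 7 all 3 passed, with log2 fold changes of 0.84, 1.60 and 0.90 and FDR values of 0.0809, 0.0521 and 0.0287. Without HPHE heifer 15 ACSS2 passed (0.81, FDR 0.0977). The share of all genes called in these refits is not given here, so they are not read as particular to the 3 genes. The difference between both energy contrasts was itself not called for any of the 3 genes (FDR of at least 0.9999, where 0.105% of all genes were called), and its 95% interval for ACSS2 ran from -0.11 to 1.20.

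**Figure D1:**
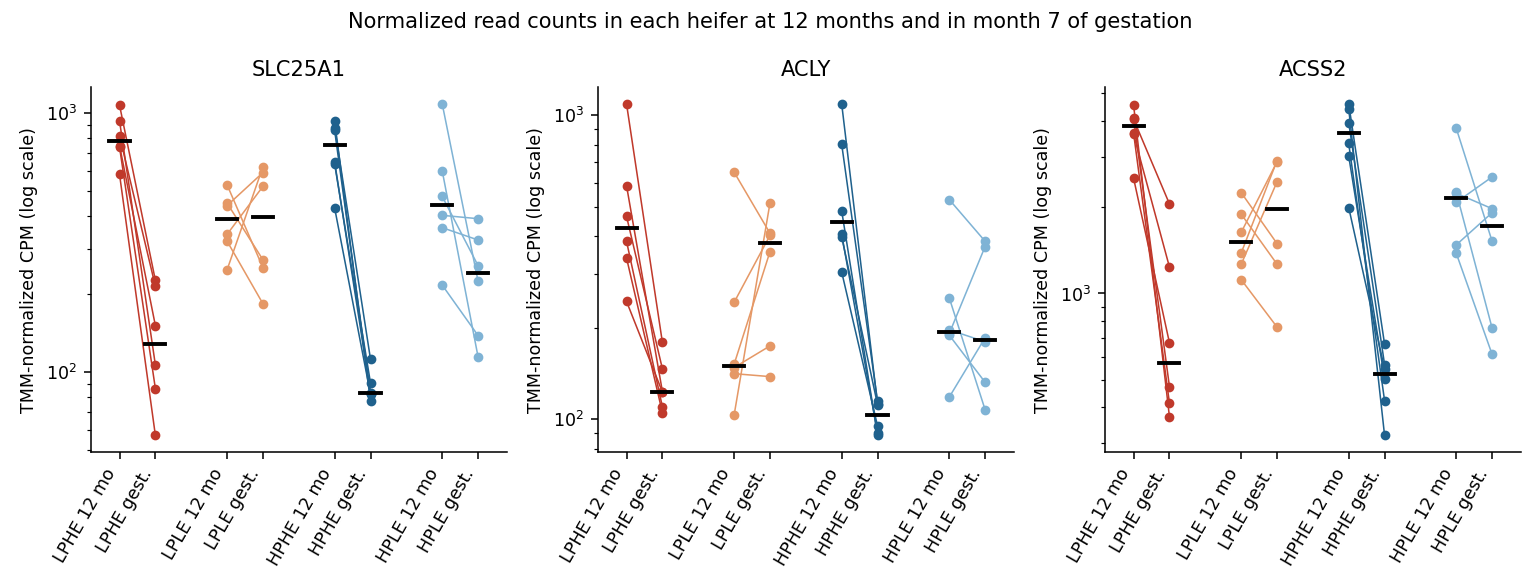
TMM-normalized CPM (log scale) of SLC25A1, ACLY and ACSS2 in each heifer at 12 months and in month 7 of gestation, with a line joining both samples of a heifer and a black bar at the median of 6 heifers. All lines of LPHE and HPHE heifers fall, whereas lines of LPLE and HPLE heifers go in both directions, except for SLC25A1 in HPLE heifers, where all 6 fall.

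In month 7 of gestation the order of the energy groups was turned around: all 3 genes were lower in heifers reared on high energy, which were also the younger ones. SLC25A1 ran from 57.03 over a median of 129.0 to 226.4 CPM in LPHE heifers and from 183.9 over 397.0 to 621.7 CPM in LPLE heifers. Its log2 fold change was -1.64 (SE 0.32, FDR 0.00149). Both ranges met only through the lowest LPLE heifer, heifer 18. In HPHE heifers SLC25A1 ran from 77.14 over 82.91 to 112.3 CPM, and every HPLE heifer was above them, with 114.7, 241.5 and 391.8 CPM as lowest, median and highest. HE minus LE was -1.45 on the log2 scale (SE 0.31, FDR 0.00295).

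ACLY ran from 105.0 over a median of 123.0 to 178.7 CPM in LPHE heifers and from 138.0 over 379.0 to 513.9 CPM in LPLE heifers in gestation. HE minus LE was -1.36 on the log2 scale (SE 0.28, FDR 0.00271). The 6 HPHE heifers lay close together, between 88.39 and 114.5 CPM with a median of 103.3 CPM, against 107.4 to 384.8 CPM with a median of 182.5 CPM in HPLE heifers. HE minus LE was -1.16 on the log2 scale (SE 0.28, FDR 0.0129). Without HPLE heifer 1 or HPLE heifer 7 that call was lost, with FDR values of 0.104 and 0.188.

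ACSS2 ran from 370.8 over a median of 572.7 to 2055 CPM in LPHE heifers and from 763.4 over 1974 to 2910 CPM in LPLE heifers in gestation. LPHE heifers 20 and 3 held the highest levels of their diet, at 2055 and 1237 CPM, and lay within the LPLE range. The log2 fold change was -1.32 (SE 0.38, FDR 0.0771), a call that was lost when any of 7 of the 12 heifers was left out (LPHE 5, 12, 16 and 24, LPLE 8, 10 and 14), with an FDR up to 0.314. In HPHE heifers ACSS2 ran from 319.3 over 524.5 to 665.2 CPM and in HPLE heifers from 612.5 over 1718 to 2553 CPM. HE minus LE was -1.62 on the log2 scale (SE 0.38, FDR 0.00793), and only the lowest HPLE heifer, heifer 13, lay within the HPHE range.

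All 3 genes were called lower in LPHE than in LPLE heifers in gestation, beside 0.739% of the 13403 genes tested, and all 3 were called lower in HPHE than in HPLE heifers, beside 0.783%. With the quasi-likelihood F test none of these 6 calls passed (FDR between 0.118 and 0.196), and that test called 0 of all 13403 genes in either contrast, against 141 and 127 with the likelihood ratio test and 423 and 173 with DESeq2, while 1792 and 1216 genes had an unadjusted p under 0.05 with the quasi-likelihood F test. DESeq2 called all 6 of these contrasts of SLC25A1, ACLY and ACSS2. In simulated counts for HPHE against HPLE in gestation, 22.9% of DESeq2 calls were false. The share was 15.9% with the likelihood ratio test and 10.2% with the quasi-likelihood F test. In those simulated counts a gene had the same dispersion in all diets, and the quasi-likelihood F test called 205 genes. They did not reproduce its 0 calls in the measured counts, so they cannot decide between the tools for these contrasts. Library size in place of TMM moved the split of all calls in LPHE against LPLE from 42 higher and 99 lower to 60 higher and 58 lower, and the 3 genes stayed called. By exact permutation of the 12 heifers' log2 levels between diets (two-sided, unadjusted), p was 0.00866 for SLC25A1, 0.0108 for ACLY and 0.0325 for ACSS2 in LPHE against LPLE. Between HPHE and HPLE heifers it was 0.00216 for SLC25A1, 0.00866 for ACLY and 0.00433 for ACSS2, of which the first is the smallest that this exact permutation can give. At 12 months the exact permutation p of SLC25A1, ACLY and ACSS2 was 0.00216, 0.0368 and 0.00216 in LPHE against LPLE. In HPHE against HPLE at 12 months it was 0.123, 0.0152 and 0.0325. The permutation of levels was not among the planned tests. The differences of the energy contrasts between the protein levels were not called in gestation either (0 of 3, beside 0.00746% of all genes).

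Between both samplings all 3 genes were called lower in both HE diets. In LPHE heifers the fitted log2 change from 12 months to gestation was -2.58 for SLC25A1 (SE 0.32, FDR 9.22e-13), -1.98 for ACLY (SE 0.39, FDR 9.90e-06) and -2.17 for ACSS2 (SE 0.34, FDR 2.07e-08). In HPHE heifers it was -3.03 for SLC25A1 (SE 0.33, FDR 4.96e-17), -2.51 for ACLY (SE 0.39, FDR 1.72e-08) and -2.80 for ACSS2 (SE 0.35, FDR 6.66e-13). Each of the 12 HE heifers had a lower level in gestation than at 12 months for each of the 3 genes, and no level of a diet in gestation reached the lowest of the same diet at 12 months. The smallest decrease of a single HE heifer was -0.98 on the log2 scale, for ACSS2 in an LPHE heifer, and the largest was -3.79, for ACSS2 in an HPHE heifer. The median HPHE heifer kept 12.8% of its SLC25A1 level, 20.1% of its ACLY level and 14.4% of its ACSS2 level.

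A decrease between both samplings was common in HE heifers, as 16% of the 13718 genes tested were called lower in gestation in LPHE heifers and 15.9% in HPHE heifers. All heifers of the diet were lower in gestation without overlap, as they were for the 3 genes, for 4.72% of genes in LPHE and 7.27% in HPHE heifers. Scaling by library size in place of TMM moved the median log2 fold change of all genes in LPHE heifers from 0.025 to 0.193, and turned the split of calls from 1891 higher and 2197 lower to 3924 higher and 1425 lower. In HPHE heifers the split went from 2264 higher and 2175 lower to 3817 higher and 1453 lower. The 3 genes kept their direction and call in both diets under that scaling, with log2 fold changes between -2.89 and -1.84.

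In LPLE heifers none of the 3 genes was called, with log2 fold changes of 0.09 for SLC25A1 (95% interval from -0.50 to 0.68), 0.47 for ACLY (from -0.27 to 1.20) and 0.32 for ACSS2 (from -0.31 to 0.96). SLC25A1 was lower in gestation in 3 of the 6 LPLE heifers, ACLY in 2 and ACSS2 in 3. Of all genes 0.262% were called lower in gestation in that diet. In HPLE heifers SLC25A1 was the only one of the 3 that was called, at -1.15 on the log2 scale (SE 0.31, FDR 0.0175). In that diet 1.05% of all genes were called lower in gestation. SLC25A1 was lower in 6 of 6 HPLE heifers, a count not made for all genes, with the smallest change at -0.04 on the log2 scale. It was not called without HPLE heifer 7 (log2 fold change -0.75, FDR 0.314) or HPLE heifer 17 (-0.98, FDR 0.140). ACLY changed by -0.12 (95% interval from -0.85 to 0.61) and ACSS2 by -0.53 (from -1.16 to 0.11) in HPLE heifers. With the heifer as a block these calls were the same, while the number of all genes called went from 82 to 493 in LPLE and from 360 to 736 in HPLE heifers.

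The difference between the energy effect in gestation and that at 12 months, over both protein levels, was tested as 1 interaction. It includes the difference of LPHE and LPLE heifers at 12 months by which the study selected the 3 genes. Its direction and size are therefore not independent of that selection. It was -2.28 for SLC25A1 (SE 0.30, FDR 1.72e-10), -2.42 for ACLY (SE 0.38, FDR 8.45e-08) and -2.38 for ACSS2 (SE 0.33, FDR 6.87e-10) on the log2 scale. Of all genes 12% were called lower in that test. Library size moved the median of all genes from 0.056 to 0.178 in that test, and the split of calls from 1267 higher and 1650 lower to 2769 higher and 1162 lower, and the 3 genes were then at -2.16, -2.28 and -2.27.

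**Figure D2:**
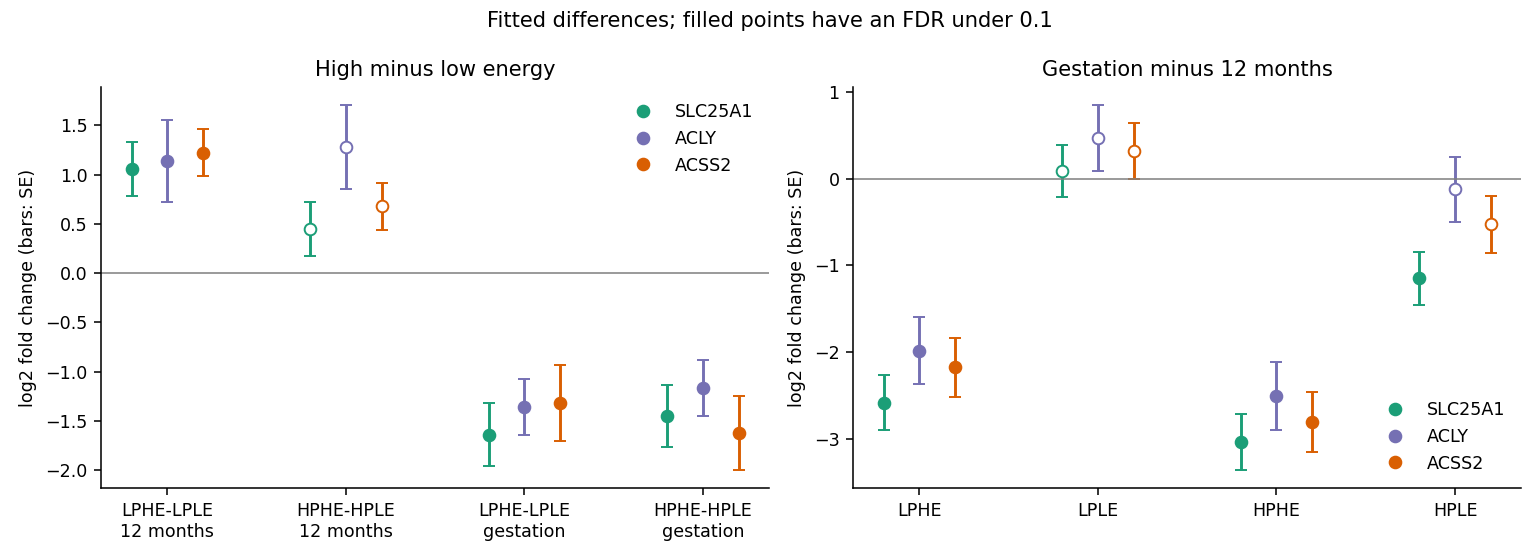
Fitted log2 fold changes with SE of SLC25A1, ACLY and ACSS2 for high against low energy at each protein level and sampling (left) and for gestation against 12 months in each diet (right), with filled points for an FDR under 0.1. The energy contrasts are above 0 at 12 months and below 0 in gestation, and the changes with time are lowest in LPHE and HPHE heifers.

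Ordered by mean level, SLC25A1 was highest in LPHE heifers at 12 months (817 CPM, SD 171), followed by HPHE (732, SD 193) and HPLE (525, SD 304) at 12 months, LPLE in gestation (407, SD 192) and LPLE at 12 months (388, SD 103). The lowest means were those of gestation in HPLE (242, SD 106), LPHE (141, SD 69.4) and HPHE heifers (88.1, SD 12.7), with n = 6 in each group. For ACSS2 the order was the same, from 3741 CPM (SD 690) in LPHE heifers at 12 months to 503 CPM (SD 120) in HPHE heifers in gestation. For ACLY it ran from 581 CPM (SD 303) in HPHE heifers at 12 months to 102 CPM (SD 12.1) in HPHE heifers in gestation. The ranges of neighbours in these orders overlapped in every case. The gap between neighbours exceeded the larger SD only between LPLE at 12 months and HPLE in gestation for SLC25A1, between HPHE and HPLE at 12 months for ACSS2, and between LPHE and HPHE in gestation for ACLY.

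The spread between heifers also differed by group. In gestation the HPHE heifers were the most alike, with a coefficient of variation of 14.4% for SLC25A1, 11.9% for ACLY and 23.9% for ACSS2. In LPLE heifers of the same sampling it was 47.2%, 44.1% and 46.3%. The widest spread of ACLY was that of LPLE heifers at 12 months (86.2%), and that of ACSS2 was in LPHE heifers in gestation (76.1%). Differences between these spreads were not tested.

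Protein level and genetic group showed no called difference. In the protein contrasts HPHE-LPHE and HPLE-LPLE, 0 of the 3 genes were called at either sampling (12 tests, FDR of at least 0.9998), and the log2 fold changes ran from -0.81, for SLC25A1 in HPLE against LPLE heifers in gestation, to 0.47. By unadjusted p 4 of the 12 tests were under 0.05 with the likelihood ratio test, 1 with the quasi-likelihood F test and 2 with DESeq2, and no tool called a gene. The share of all genes called was 0.0225% in both contrasts at 12 months, and 0.00746% in HPHE-LPHE and 0.0746% in HPLE-LPLE in gestation. HMY and LCM heifers did not differ by call either (6 tests, FDR of at least 0.846, 0 by unadjusted p under 0.05), where 0.03% of all genes were called at 12 months and 0.179% in gestation. The log2 fold changes of HMY against LCM ran from -0.14 to 0.42.

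Whether citrate and acetate routes moved apart was asked with the log2 ratio of the read counts of 2 genes within a sample. A ratio within a sample does not depend on scaling between samples, and its absolute size carries the unknown gene lengths, so that only its differences are read. For ACLY over ACSS2 the mean log2 ratio at 12 months was -3.00 (SD 0.73) in LPHE and -3.00 (SD 1.07) in LPLE heifers, and -2.71 (SD 0.52) in HPHE and -3.25 (SD 0.48) in HPLE heifers. For SLC25A1 over ACSS2 it was -2.20 (SD 0.45) in LPHE and -2.04 (SD 0.24) in LPLE heifers, and -2.28 (SD 0.42) in HPHE and -2.17 (SD 0.32) in HPLE heifers. None of the 24 comparisons of 3 ratios between diets passed after adjustment (exact permutation tests over 6 heifers against 6, two-sided, Benjamini-Hochberg over 24, adjusted p of at least 0.675). The smallest unadjusted p of the exact tests was 0.0281, for SLC25A1 over ACSS2 in HPLE against LPLE heifers in gestation, with a difference of -0.37 on the log2 scale. The smallest p this design allows is 0.00216, and a ratio that misses the threshold is not shown to be equal between diets.

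Over all 24 heifers ACLY over SLC25A1 and SLC25A1 over ACSS2 changed between both samplings, and ACLY over ACSS2 missed the threshold. Against ACSS2 the estimates of SLC25A1 and ACLY had opposite signs, so no shift of the whole citrate route is read from them. ACLY gained on SLC25A1 within the citrate route, by 0.78 on the log2 scale (SD 0.92, higher in 19 of 24 heifers, permutation test of signs p = 0.00072, adjusted p = 0.0108 over 15 tests). The gain was 0.84 in LPHE, 0.67 in LPLE, 0.65 in HPHE and 0.95 in HPLE heifers, none of which passed alone with 6 heifers, where the smallest exact p is 0.03125. SLC25A1 fell against ACSS2 by 0.30 (SD 0.46, higher in only 6 of 24 heifers, permutation p = 0.00486, adjusted p = 0.0365). This call was lost when any of 10 of the 24 heifers was left out (LPHE 3, LPLE 14 and 22, HPHE 11, 15 and 23, HPLE 7, 9, 17 and 21), with an adjusted permutation p up to 0.0636. ACLY over ACSS2 rose by 0.48 (SD 0.86, higher in 19 of 24 heifers, permutation p = 0.0131), which missed the threshold of 0.05 after adjustment (0.0657). It passed without LPLE heifer 8 (0.57, adjusted permutation p = 0.0108) or LPHE heifer 20 (0.57, adjusted permutation p = 0.0145).

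**Figure D3:**
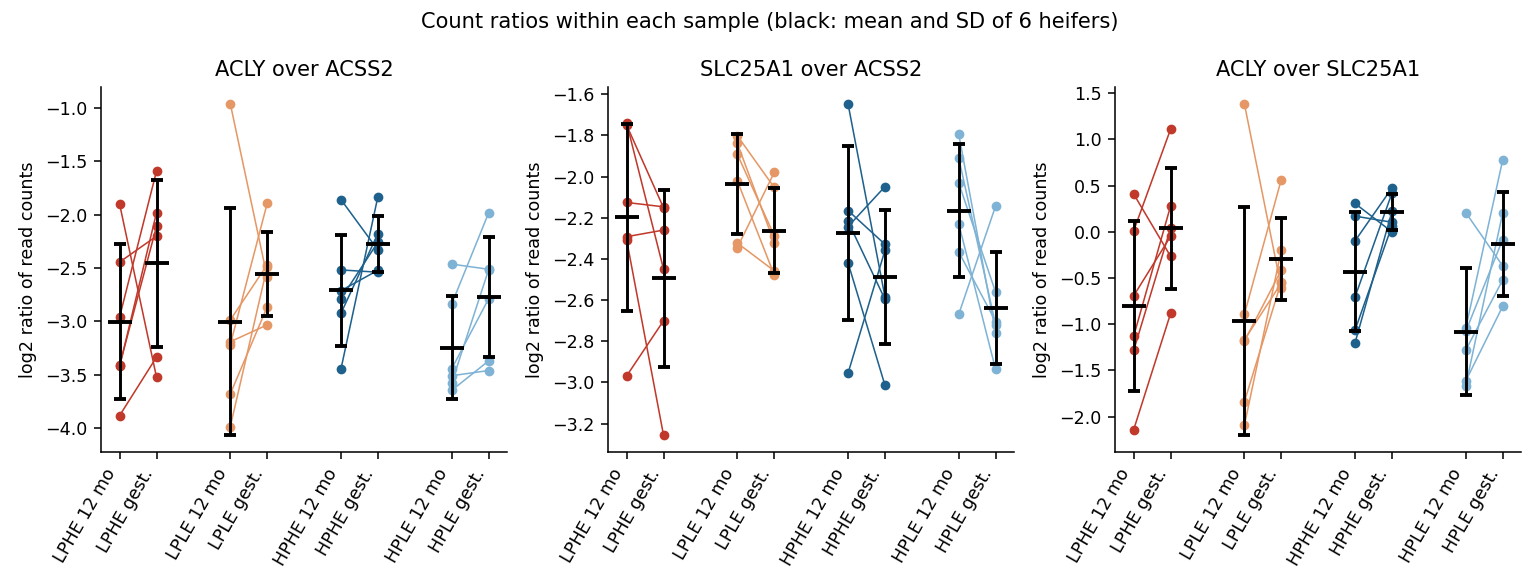
Log2 ratio of read counts of ACLY over ACSS2, SLC25A1 over ACSS2 and ACLY over SLC25A1 in each sample, with lines joining both samples of a heifer and the mean and SD of 6 heifers in black. ACLY over SLC25A1 is higher in gestation in 19 of 24 heifers, and the point at the top of LPLE at 12 months is heifer 8.

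Heifers of the same diet differed in a concerted way for SLC25A1 and ACSS2. Differences between HMY and LCM heifers were not subtracted and remain part of the correlations given here. After the mean of the diet was subtracted from log2 CPM, both genes were correlated over the 24 heifers at 12 months (Pearson r = 0.70, permutation p = 0.00147, adjusted 0.00441, Spearman rho = 0.68, permutation p = 0.00116, adjusted 0.00366), and r was 0.52 without the 2 heifers farthest from the median. In gestation r was 0.91 (permutation p = 1e-05, the smallest that 100000 resamples can give, adjusted 9e-05) and rho 0.94 (permutation p = 1e-05, adjusted 9e-05), with r = 0.90 without the 2 farthest heifers. ACLY followed them in gestation, with r = 0.67 to SLC25A1 (permutation p = 0.00254, adjusted 0.00571, rho 0.67, permutation p = 0.00249, adjusted 0.0056, r = 0.66 without 2 heifers). With ACSS2 its r was 0.72 (permutation p = 0.00017, adjusted 0.000765, rho 0.70, permutation p = 0.00122, adjusted 0.00366, r = 0.72 without 2 heifers). At 12 months ACLY gave r = 0.06 to SLC25A1 (permutation p = 0.775, adjusted 0.788, rho -0.03, permutation p = 0.884, adjusted 0.884, r = -0.17 without 2 heifers). To ACSS2 it gave r = 0.37 (permutation p = 0.0911, adjusted 0.164, rho 0.40, permutation p = 0.0657, adjusted 0.108, r = 0.41 without 2 heifers). The difference in r between both samplings was not tested.

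Whether a heifer that was high at 12 months was also high in gestation could not be shown. The correlation of a gene with itself over 24 heifers between both samplings was r = 0.08 for SLC25A1 (permutation p = 0.744, adjusted 0.788, rho 0.05, permutation p = 0.838, adjusted 0.884, r = -0.05 without the 2 farthest heifers). For ACSS2 it was r = 0.06 (permutation p = 0.788, adjusted 0.788, rho -0.05, permutation p = 0.825, adjusted 0.884, r = 0.08 without 2 heifers). For ACLY it was r = 0.37 (permutation p = 0.13, adjusted 0.194, rho 0.40, permutation p = 0.0718, adjusted 0.108, r = 0.18 without 2 heifers). These 9 relations were adjusted together.

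**Figure D4:**
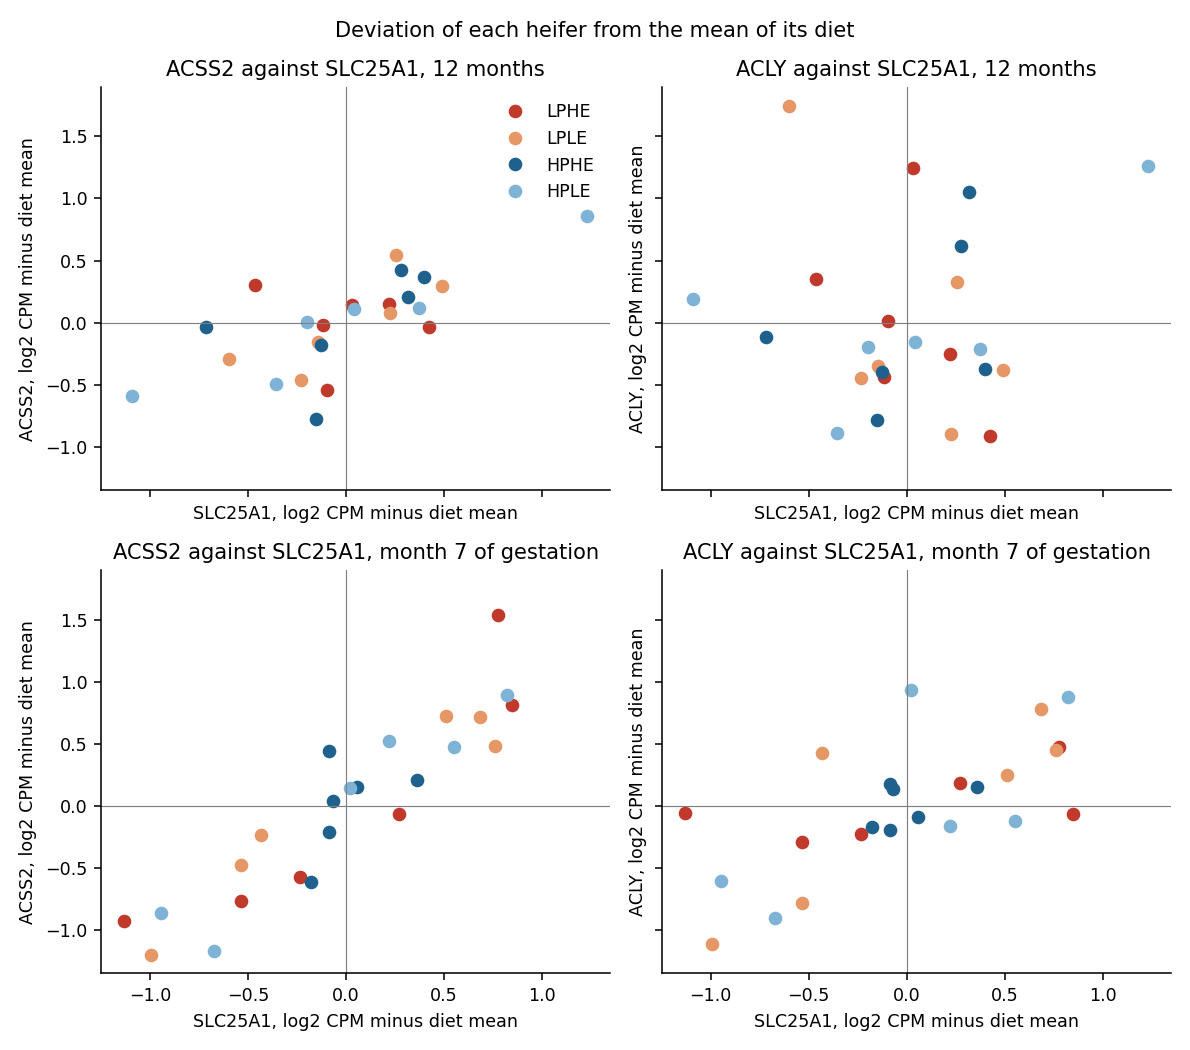
Log2 CPM of each heifer minus the mean of its diet, for ACSS2 (left) and ACLY (right) against SLC25A1, at 12 months (top) and in gestation (bottom), coloured by diet. ACSS2 lies along the diagonal with SLC25A1 at both samplings (r = 0.70 and 0.91), while ACLY gives r = 0.67 in gestation and 0.06 at 12 months.

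Among 13718 genes, the pattern of log2 CPM over all 48 samples most like that of SLC25A1 was that of FASN, the fatty acid synthase (r = 0.96), followed by HAGH, a hydrolase of the glyoxalase pathway (r = 0.96), and TKT, the transketolase of the pentose phosphate pathway (r = 0.96). ACSS2 itself (r = 0.95) and PCYT2, an enzyme of phosphatidylethanolamine synthesis (r = 0.95), came next. After the mean of each of the 8 groups was subtracted, r was 0.88, 0.88, 0.87, 0.84 and 0.81. For ACSS2 the closest genes were PCYT2 (r = 0.97), FASN (0.96), SCD, the stearoyl-CoA desaturase (0.96), SLC25A4, a mitochondrial ADP/ATP carrier (0.96), and ENSBTAG00000047957 (0.96), a gene without a symbol in the tables used, and within groups their r was between 0.85 and 0.90. ACLY had other neighbours. Its closest genes were AACS, the acetoacetyl-CoA synthetase (r = 0.90), MVD, the mevalonate diphosphate decarboxylase of sterol synthesis (0.87), ENSBTAG00000012225 (0.86), ENSBTAG00000003367 (0.85) and CYCS, cytochrome c (0.85), with r within groups between 0.65 and 0.82. SLC25A1 ranked only 154th among the genes most like ACLY (r = 0.74), and ACSS2 36th (r = 0.81). From the other side, ACLY ranked 557th among the genes most like SLC25A1 and 357th among those most like ACSS2. These correlations share libraries and group differences and are given as a description.

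The genes around the 3, in 6 lists of 60 genes, could be followed where the study's tables pair a symbol with an identifier, which was so for 27 genes. Since those tables hold differentially expressed genes of LPHE against LPLE at 12 months, the 24 of 27 called higher there (median log2 fold change 0.81) are no independent evidence. By list they were 8 of 9 genes from pyruvate to citrate, 2 of 2 of other acetyl-CoA and acetate handling, 5 of 5 of fatty acid synthesis, 5 of 6 of sterol synthesis, 4 of 4 of NADPH and carbon return, and 0 of 1 regulator. In HPHE against HPLE heifers at 12 months 0 of 27 were called, although all 27 estimates were above 0, with a median log2 fold change of 0.39 beside -0.01 over all genes. The study reports the same direction under high protein for most of its differentially expressed genes of LPHE against LPLE. The shared direction of the 27 is therefore not read as particular to these lists. In gestation all 27 estimates were below 0 in both energy contrasts, with medians of -0.57 in LPHE against LPLE and -0.65 in HPHE against HPLE, beside 0.01 over all genes in each. Of the 27, 9 and 12 were called lower with the likelihood ratio test and none was called higher, and with the quasi-likelihood F test no gene of any list was called lower in these contrasts. All energy contrasts of a sampling share libraries with the values of the 3 genes above.

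Fatty acid synthesis, the main consumer of cytosolic acetyl-CoA, could be followed in 5 of 8 listed genes. In gestation 2 of 5 were called lower in LPHE than in LPLE heifers (median -1.18), of which FASN had both the smallest p and the lowest estimate (log2 fold change -1.47, FDR 0.0606) and ELOVL6, a fatty acid elongase, the highest (-0.94, FDR 0.227). Under high protein, in HPHE against HPLE heifers, 4 of 5 were called lower (median -1.48), with FASN again lowest (-1.81, FDR 0.00416). ELOVL6 was highest there too (-1.25, FDR 0.0338). At 12 months ELOVL6 had the largest estimate in LPHE against LPLE (1.58, FDR 2.51e-04) and FASN the smallest (0.73, FDR 0.0622). Of the HPHE-HPLE contrast at 12 months SCD was largest (1.06, FDR 0.230) and FASN smallest (0.36, FDR 0.770).

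Sterol synthesis could be followed in 6 of 18 listed genes. In gestation 5 of 6 were called lower in LPHE than in LPLE heifers (median -1.21). MVD had the smallest p (-1.38, FDR 9.10e-04), IDI1, the isopentenyl diphosphate isomerase, the lowest estimate (-1.49, FDR 0.00875) and SC5D, a late sterol desaturase, the highest (-0.43, FDR 0.272). Under high protein 3 of 6 were called lower (median -0.83), with IDI1 at -1.50 (FDR 0.00456) and SC5D at -0.38 (FDR 0.536). At 12 months IDI1 was the largest in both energy contrasts, at 1.29 (FDR 0.00376) and 0.71 (FDR 0.557), and SC5D the smallest, at 0.53 (FDR 0.0588) and 0.22 (FDR 0.817).

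The other genes of acetyl-CoA and acetate handling were represented by AACS and SLC16A7 (a monocarboxylate carrier), 2 of 11 listed. Both were called lower in gestation in both energy contrasts. AACS was at -1.38 (FDR 0.00458) in LPHE against LPLE and at -1.12 (FDR 0.0333) in HPHE against HPLE heifers. SLC16A7 was at -0.92 in both, with FDR values of 0.0606 and 0.0520. At 12 months AACS was at 0.82 (FDR 0.0342) and 0.41 (FDR 0.755), and SLC16A7 at 0.93 (FDR 0.0338) and 0.54 (FDR 0.702).

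Upstream, the genes from pyruvate to citrate (mitochondrial pyruvate carrier, pyruvate dehydrogenase complex, PC and CS, 9 of 9 listed) had smaller estimates in gestation. In LPHE against LPLE heifers 0 of 9 were called (median -0.35), with 5 at an unadjusted p under 0.05 in the likelihood ratio test, and DESeq2 called 1 lower and the quasi-likelihood F test 0. CS, the citrate synthase, was the lowest (-0.52, FDR 0.133) and MPC1, a subunit of the pyruvate carrier, the highest (-0.16, FDR 0.902). Under high protein (HPHE against HPLE, median -0.45) 1 of 9 was called lower, MPC2, the other carrier subunit (-0.55, FDR 0.0703), with MPC1 lowest (-0.55, FDR 0.463) and PC, pyruvate carboxylase, highest (-0.21, FDR 1). At 12 months MPC1 was the largest in LPHE against LPLE (1.17, FDR 3.98e-04) and PDHB, a subunit of pyruvate dehydrogenase, the smallest (0.43, FDR 0.0834). At 12 months under high protein DLAT, another subunit, was largest (0.54, FDR 0.573) and PDHB smallest (0.22, FDR 0.778).

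Genes that yield NADPH for lipid synthesis or return oxaloacetate carbon (ME1, PGD, IDH1 and MDH1, 4 of 4 listed) were called in 0 of 4 cases in LPHE against LPLE heifers in gestation (median -0.50), with 2 at an unadjusted p under 0.05 in the likelihood ratio test, while 1 was called lower by DESeq2 and 0 by the quasi-likelihood F test. ME1, the cytosolic malic enzyme, was the lowest (-0.57, FDR 0.631) and IDH1, the cytosolic NADP-dependent isocitrate dehydrogenase, the highest (-0.34, FDR 0.665). Under high protein 2 of 4 were called lower (median -0.67). MDH1, the cytosolic malate dehydrogenase, had the smallest p (-0.69, FDR 0.0203), ME1 the lowest estimate (-0.83, FDR 0.507) and IDH1 the highest (-0.60, FDR 0.319). At 12 months ME1 had the largest estimate in both contrasts, at 1.71 (FDR 3.98e-04) and 1.20 (FDR 0.183). The smallest estimates were those of MDH1 in LPHE against LPLE (0.81, FDR 0.0123) and IDH1 in HPHE against HPLE (0.22, FDR 0.878). Of 10 listed regulators only MLXIPL, the carbohydrate response element-binding protein, had an identifier, and with the likelihood ratio test it was called in none of the 4 energy contrasts (-0.69 and -0.73 in gestation, FDR 0.169 and 0.160, against 0.57 and 0.25 at 12 months, FDR 0.106 and 0.837). DESeq2 (FDR 0.0773) and the estimated dispersion prior, an alternative chosen after seeing the data (FDR 0.0967), called MLXIPL higher in LPHE than in LPLE heifers at 12 months.

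**Figure D5:**
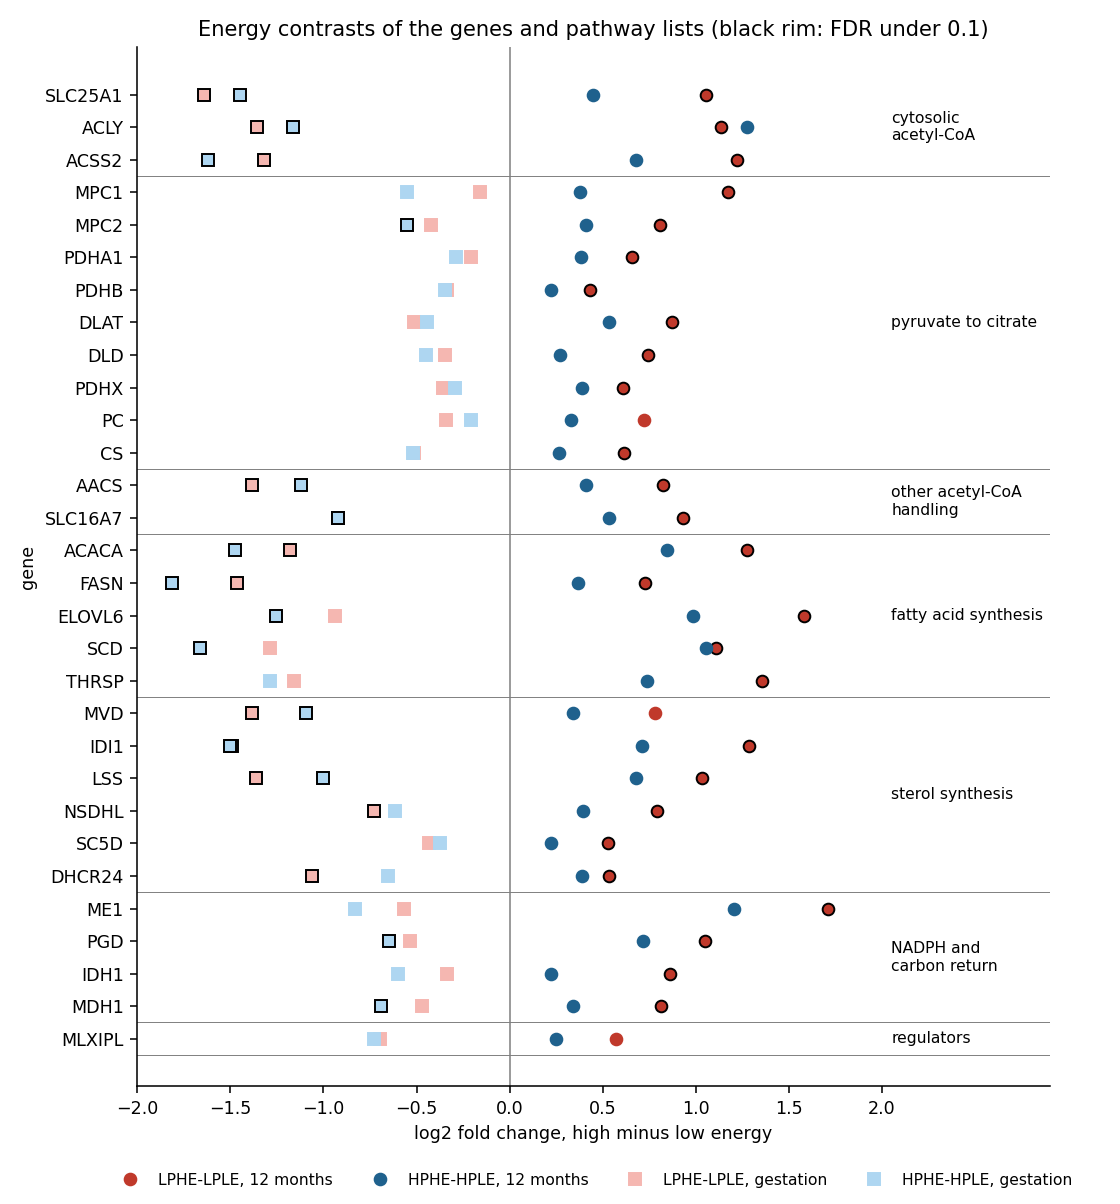
Log2 fold changes of high against low energy for SLC25A1, ACLY, ACSS2 and the 27 genes of the pathway lists, at 12 months (circles) and in gestation (squares), with a black rim for an FDR under 0.1. All circles lie above 0 and all squares below 0, and the 9 genes from pyruvate to citrate lie nearer to 0 in gestation, between -0.55 and -0.16, than SLC25A1, ACLY and ACSS2 do, between -1.64 and -1.16.

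With time, by the likelihood ratio test, 26 of the 27 genes were called lower in gestation in LPHE and 26 in HPHE heifers, and 0 in LPLE and HPLE heifers, the exception in HE heifers being PC (log2 fold change -0.53, FDR 0.105 in LPHE and -0.20, FDR 0.576 in HPHE heifers). DESeq2 called 9 of the 9 genes from pyruvate to citrate lower in LPHE heifers, PC included, and 8 of 9 in HPHE heifers. The interaction of energy and time was called for all 27, with a median of -1.26, beside 0.06 over all genes. The levels at 12 months by which the study's tables hold these genes enter these changes with time and the interaction, as they do for SLC25A1, ACLY and ACSS2, so their direction is not independent evidence there either.

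Marker genes moved with energy at 12 months. Of the adipocyte markers LEP was called higher in LPHE than in LPLE heifers (log2 fold change 1.60, FDR 0.00212) and CIDEC was not (0.58, FDR 0.132), and neither was called in HPHE against HPLE heifers or in the energy contrasts of gestation. In the interaction of energy and time both were called lower, LEP at -1.57 (FDR 5.46e-04) and CIDEC at -0.70 (FDR 0.0116), which was nearer to 0 than the values of SLC25A1, ACLY and ACSS2. With time CIDEC was called lower in LPHE (-0.53, FDR 0.0517) and HPHE heifers (-0.77, FDR 0.00268), and LEP higher in LPLE (1.51, FDR 0.0186) and HPLE heifers (1.14, FDR 0.0869). The summed level of both had a median of 2686 CPM (LPHE) against 1446 CPM (LPLE) at 12 months, and of 2020 against 2008 CPM in gestation. The summed level of 3 matrix genes (COL1A1, COL3A1 and DCN, 3 of 4 listed) ran from 13500 over a median of 26850 to 41500 CPM in LPHE heifers and from 26540 over 55010 to 67800 CPM in LPLE heifers, and all 3 were called lower in LPHE heifers. The medians of the high-protein diets were 23050 CPM (HPHE) and 33860 CPM (HPLE), with none called. In gestation none of the 3 was called in either energy contrast, with medians of 32740 CPM (LPHE), 32890 CPM (LPLE), 46410 CPM (HPHE) and 26570 CPM (HPLE), while all 3 of these matrix genes were called higher in the interaction of energy and time. With time DCN, a matrix proteoglycan, was called higher in LPHE (0.72, FDR 0.0100) and HPHE heifers (0.85, FDR 0.00168), and COL1A1 and COL3A1 were called in no diet. Skeletal muscle markers (ACTA1, MYH2, MYH7, CKM and MYLPF, 5 of 8 listed) summed to at most 286 CPM in any sample, and in LPHE heifers at 12 months to at most 1.37 CPM against up to 60.5 CPM in LPLE heifers, where all 5 were called lower in LPHE. With time, MYH2 (-10.52, FDR 0.0207) and MYLPF (-5.89, FDR 0.0875) were called lower in LPLE heifers. The identifiers of the adipocyte, matrix and muscle markers came from the study's table of genes that differed between LPHE and LPLE heifers at 12 months, so calls in that contrast were largely fixed by the choice and are not independent evidence. The part of adipocytes, matrix cells and muscle in the results on SLC25A1, ACLY and ACSS2 was not tested. The 3 listed endothelial and 5 listed leukocyte markers had no identifier in the tables used and were not analysed here.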

How the data were processed

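The deposited values are raw read counts per Ensembl gene. To make them the authors trimmed paired-end reads with cutadapt (version 1.3), aligned them to the UMD3.1 assembly with TopHat2 (2.0.12) and counted reads with HTSeq, per the labels and the study's methods, without normalization. How reads of near-identical gene copies were assigned is not given in the sources used here. Gene lengths, coordinates and sequences on UMD3.1 were not analysed here, and the planned search of promoter letters was not run.

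The 5 summary rows of each count file were left out. A gene was tested if 3 or more samples reached 2 CPM. Counts were scaled with TMM in edgeR (4.0.16, R 4.3.3), a generalized linear model of diet and genetic group was used for the 24 samples of each sampling, and one of group and genetic group for changes with time over all 48, and contrasts were tested by likelihood ratio with tagwise dispersions (prior df 10) and an FDR under 0.1. The study's sources give the filter, the model of diet and genetic group, tagwise dispersions and the FDR, whereas TMM, the likelihood ratio test, the prior df and the fit over both samplings were chosen here. The SE was derived from the estimate and its likelihood ratio statistic, and 95% intervals are built from it. Ratios and correlations used a pseudocount of 0.5. Alternatives were the quasi-likelihood F test, DESeq2 (1.42.0), library size, RLE, other filters and samples, and each heifer left out. Estimated dispersion priors were added after seeing the data. The scripts were tested on simulated counts that held 200 altered genes and, for each gene, the same dispersion in all diets. For LPHE against LPLE at 12 months, 12.3% of the likelihood ratio calls were false, and for HPHE against HPLE in gestation 15.9%. These shares were 17.4% and 22.9% with DESeq2, and 8.9% and 10.2% with the quasi-likelihood F test, beside an FDR threshold of 0.1. Altered genes were recovered in 89.5% and 95.5% (likelihood ratio), 90.0% and 96.0% (DESeq2), and 86.5% and 92.0% of cases (quasi-likelihood).

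Heifer numbers in the labels mark the same animal, which pairs both samplings. Over 13718 genes the deviations of a heifer from its group means correlated between samplings with a median of 0.304 (from -0.056 to 0.581, above 0.1 in 20 of 24 heifers). Reads of samples within a group differed beyond sampling noise in all 120 pairs (lowest chi-square over its degrees of freedom 43.5). Symbols came from the study's tables. Some listed genes are not reported here and were left out of the list counts. Genes named from the lists were, in each energy contrast, the called gene with the smallest p and those at both ends of the log2 fold changes, and the 5 genes most correlated with each of the 3. The 3 genes and the lists were chosen with earlier results of these data known.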

Additional observations from a re-analysis of the deposited data

Results flagged for a closer look

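In 48 groups of 6 heifers tested for a single far value, 7 were flagged, where chance flags about 1 in 20. At 12 months ACLY in LPLE heifers was flagged for heifer 8 (649.5 CPM), which also gave the highest log2 ratio of its diet for ACLY over ACSS2 (-0.96) and for ACLY over SLC25A1 (1.39). HPLE heifer 7 was flagged for ACLY (527.8 CPM) and ACSS2 (3773 CPM). For ACLY over SLC25A1 the highest HPLE sample at 12 months (0.21) and the highest LPLE sample in gestation (0.57) were flagged. The energy effect differed between both samplings for SLC25A1 (-2.28 on the log2 scale), ACLY (-2.42) and ACSS2 (-2.38), by the interaction tested over all 48 samples with the likelihood ratio test of edgeR. That interaction includes the difference at 12 months by which the study selected these genes.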

How the results depend on the processing

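For ACLY in LPHE against LPLE at 12 months the call was lost with the quasi-likelihood F test (1.13), DESeq2 (1.13), library size (1.05), no filter (1.13), only the 12 samples of the contrast (1.16), an FDR under 0.05 (1.14) and the estimated prior for the dispersions, an alternative chosen after seeing the data (1.14). In gestation the quasi-likelihood F test lost SLC25A1 (-1.64), ACLY (-1.36) and ACSS2 (-1.32) in LPHE against LPLE and SLC25A1 (-1.45), ACLY (-1.16) and ACSS2 (-1.62) in HPHE against HPLE, with the estimates kept. ACSS2 in LPHE against LPLE was also lost without a filter (-1.33), with the estimated prior (-1.32), without genetic group (-1.18) and at an FDR under 0.05 (-1.32), and ACLY in HPHE against HPLE with all 48 samples in 1 fit (-1.15). The cause was not tested. With the heifer as a block, SLC25A1 in LPLE heifers turned from 0.090 to -0.045 with time, and no call of the 3 genes changed. Under the alternatives that left out no heifer, the other 428 values kept direction and call.

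Leaving out each heifer, log2 fold changes ran from 0.73 to 1.70 for ACLY in LPHE against LPLE at 12 months, and in HPHE against HPLE from 0.30 to 0.84 for SLC25A1, 1.002 to 1.60 for ACLY and 0.57 to 0.90 for ACSS2. In gestation they ran from -1.69 to -1.15 for ACSS2 in LPHE against LPLE and from -1.32 to -0.88 for ACLY in HPHE against HPLE. With time they ran from -0.19 to 0.33 for SLC25A1, 0.16 to 1.002 for ACLY and 0.15 to 0.51 for ACSS2 in LPLE heifers, none of them called, and in HPLE heifers from -1.39 to -0.75 for SLC25A1, -0.37 to 0.041 for ACLY and -0.72 to -0.29 for ACSS2, which was called in none. Ratio differences between diets that changed sign ran, for ACLY over ACSS2, from -0.44 to 0.17 (HPLE-LPLE, 12 months), -0.22 to 0.41 (LPHE-LPLE, 12 months), -0.032 to 0.35 (HPHE-LPHE, gestation) and -0.074 to 0.31 (LPHE-LPLE, gestation). For SLC25A1 over ACSS2 they ran from -0.23 to 0.028 (HPHE-HPLE, 12 months), -0.23 to 0.059 (HPHE-LPHE, 12 months) and -0.15 to 0.11 (HPHE-LPHE, gestation). For ACLY over SLC25A1 they ran from -0.37 to 0.36 (HPLE-LPLE, 12 months), -0.081 to 0.63 (LPHE-LPLE, 12 months), -0.024 to 0.33 (HPLE-LPLE, gestation) and -0.0094 to 0.39 (HPHE-LPHE, gestation). Over all heifers the change with time ran from 0.43 to 0.57 for ACLY over ACSS2 and from -0.34 to -0.27 for SLC25A1 over ACSS2.

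Counting error was small beside the spread of 6 heifers per diet, which limits all contrasts. The energy calls in gestation hold with the likelihood ratio test and DESeq2 and not with the quasi-likelihood F test, except as given above. In the simulated counts the quasi-likelihood F test gave the smallest share of false calls and DESeq2 the largest. Only 27 of 60 listed genes could be followed, and these came from tables of genes that already differed at 12 months.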

Other observations

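HMY and LCM heifers of a diet, 3 against 3, did not overlap in some groups, which were singled out after their values were seen and not tested. With 3 against 3, such separation can easily arise without a difference, and its share over all genes is not given here. No effect of genetic group is therefore read from these groups. In LPHE heifers in gestation SLC25A1 was between 151.4 and 226.4 CPM in HMY and between 57.03 and 106.7 CPM in LCM heifers, and ACSS2 between 672.6 and 2055 CPM in HMY and between 370.8 and 472.8 CPM in LCM heifers. In HPHE heifers at 12 months SLC25A1 was between 859.3 and 932.8 CPM in HMY and between 430.8 and 648.5 CPM in LCM heifers, and ACSS2 between 3952 and 4595 CPM in HMY and between 1996 and 3341 CPM in LCM heifers. The direction was the opposite for ACLY in HPLE heifers at 12 months, with 118.1 to 191.2 CPM in HMY and 196.7 to 527.8 CPM in LCM heifers. In the other groups the ranges of both genetic groups overlapped for each of the 3 genes.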
